A study of Mus musculus with 12 samples.

Results

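To describe calcineurin signalling genes in muscle that lacks *Cox6a2*, an isoform of a subunit of cytochrome *c* oxidase found in striated muscle, mRNA levels of 9 genes were followed on 12 mouse Gene 1.0 ST arrays. The genes are *Ppp3ca*, *Ppp3cb* and *Ppp3r1*, which encode subunits of calcineurin, *Nfatc1*, *Nfatc2*, *Nfatc3* and *Nfatc4*, which encode the transcription factors it acts on, and *Rcan1* and *Rcan2*, which encode inhibitors of it. They were chosen by name from the 19938 genes that had a probe set with 1 gene symbol, and each is represented by its brightest probe set. By their labels the samples form 4 groups of 3 arrays, namely diaphragm and gastrocnemius muscle of Cox6a2-/- (KO) mice and of wild type (WT) mice. All were male mice, 10 to 12 weeks old, with C57Bl6 as the strain in the labels. The labels name no treatment, and the study places the mice of the diaphragm arrays on a regular diet. The KO mice lack the gene in the whole body, and the WT mice were bought C57BL/6J animals matched for age and sex, for which no source used here states that they were littermates. The labels call the arrays of a group biological replicates and do not say whether both muscles came from the same mouse. Values are log2 signals, so that a difference of 1 is a doubling, and a gene was called where its limma p, adjusted by the Benjamini-Hochberg method over all 19938 genes, was under 0.05.

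Calcineurin is a phosphatase that is switched on by calcium and calmodulin. It is made of a catalytic A subunit and a calcium-binding regulatory B subunit, and it removes phosphates from NFAT factors in the cytoplasm, which then enter the nucleus until kinases phosphorylate them again. In skeletal muscle the pathway is known for reading the calcium of repeated nerve activity and for driving genes of slow fibers, and *Rcan1* is a classical NFAT target whose product feeds back on calcineurin.

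*Cox6a2* itself had a mean log2 signal of 11.74 in WT gastrocnemius and 11.89 on the arrays with the WT diaphragm label, against 6.93 in KO gastrocnemius and 6.89 in KO diaphragm. *Hoxc10*, a gene of hindlimb position, was at 4.18 in KO diaphragm, but at 8.68 on the arrays with the WT diaphragm label and at 8.44 (WT) and 8.53 (KO) in gastrocnemius. Of 10 genes of hindlimb position, 8 were lower in KO diaphragm than on arrays with the WT diaphragm label, and all 8 markers of mesothelium, the covering of the diaphragm, were higher, where 11.2% of all genes were called lower and 16.3% higher. None of these 18 genes was called between the arrays with the WT diaphragm label and WT gastrocnemius, where 0.461% of all genes were called. The summed signal of the hindlimb genes was 1250 to 1391 on the arrays with the WT diaphragm label. It was 451 to 496 in KO diaphragm and 1233 to 1255 in WT gastrocnemius. That of the mesothelium markers was 266 to 289, 1971 to 3597 and 280 to 317 in the same order. For this reason the arrays labelled WT diaphragm are called by their label. In the comparison of KO diaphragm with them, and in the interaction, genotype and muscle of origin cannot be told apart. Markers of macrophages (7 of 8), lymphocytes (5 of 7) and endothelium (7 of 8) were also higher in KO diaphragm than on these arrays, and the summed signal of 8 skeletal muscle markers was 65245 to 68353 in KO diaphragm against 73578 to 79829 on the other 9 arrays. Of these 8 markers, 2 were called higher and 3 lower in KO diaphragm than on arrays with the WT diaphragm label, with differences from -4.61 to 0.84 and a median of -0.15. The list includes myosin genes that differ by fiber type, so that its sum is not a measure of muscle content alone. *Acta1* had means of 13.84 on the arrays with the WT diaphragm label and 13.85 in KO diaphragm, and *Ckm* had 13.66 and 13.42.

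Promoter windows of 7 of the 9 genes were read from RefSeq (GRCm38.p6), 12 windows of 300 bases in all, each from 250 bases before a start of transcription to 50 bases after it. *Ppp3ca* and *Nfatc1* were not among them. The letters GGAAA, the core that NFAT factors bind, were searched on both strands and stand in 61.3% of all 32851 promoter windows of the table. The AP-1 letters TGACTCA or TGAGTCA, whose factors often bind beside NFAT, stand in 5.2% of them, and the MEF2 letters CTANNNNTAG in 3.69%. No window of these genes held the MEF2 letters. The windows printed here are from the 2 inhibitor genes, whose levels parted in KO diaphragm, without the second window of *Rcan2*, and from 2 subunit genes that moved together. Capitals mark GGAAA or its other strand, TTTCC.
Rcan1, first start, chr16:92466120-92466419, minus strand: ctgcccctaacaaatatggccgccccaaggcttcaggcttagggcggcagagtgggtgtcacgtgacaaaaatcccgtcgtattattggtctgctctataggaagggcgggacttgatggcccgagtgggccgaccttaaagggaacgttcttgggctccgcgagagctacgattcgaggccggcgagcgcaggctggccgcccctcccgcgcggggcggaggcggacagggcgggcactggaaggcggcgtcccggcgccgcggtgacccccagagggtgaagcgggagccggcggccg
Rcan1, start inside the gene, chr16:92400029-92400328, minus strand: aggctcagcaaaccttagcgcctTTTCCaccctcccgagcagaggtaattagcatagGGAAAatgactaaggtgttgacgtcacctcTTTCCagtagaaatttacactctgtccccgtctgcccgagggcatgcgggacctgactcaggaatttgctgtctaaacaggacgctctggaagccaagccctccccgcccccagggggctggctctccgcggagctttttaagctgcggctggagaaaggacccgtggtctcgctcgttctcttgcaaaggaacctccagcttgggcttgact
Rcan2, first start, chr17:43801102-43801401, plus strand: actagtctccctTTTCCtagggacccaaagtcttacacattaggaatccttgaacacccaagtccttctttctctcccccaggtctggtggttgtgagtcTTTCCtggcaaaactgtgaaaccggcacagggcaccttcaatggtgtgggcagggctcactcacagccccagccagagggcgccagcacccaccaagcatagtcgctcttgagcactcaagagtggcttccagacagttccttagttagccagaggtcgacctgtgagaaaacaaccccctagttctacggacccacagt
Rcan2, last start, chr17:43952749-43953048, plus strand: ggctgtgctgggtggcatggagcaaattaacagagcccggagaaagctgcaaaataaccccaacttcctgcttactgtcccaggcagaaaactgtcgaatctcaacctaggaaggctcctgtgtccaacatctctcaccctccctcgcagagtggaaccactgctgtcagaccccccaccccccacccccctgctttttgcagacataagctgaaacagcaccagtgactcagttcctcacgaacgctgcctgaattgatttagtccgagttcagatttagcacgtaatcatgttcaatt
Ppp3cb, chr14:20546524-20546823, minus strand: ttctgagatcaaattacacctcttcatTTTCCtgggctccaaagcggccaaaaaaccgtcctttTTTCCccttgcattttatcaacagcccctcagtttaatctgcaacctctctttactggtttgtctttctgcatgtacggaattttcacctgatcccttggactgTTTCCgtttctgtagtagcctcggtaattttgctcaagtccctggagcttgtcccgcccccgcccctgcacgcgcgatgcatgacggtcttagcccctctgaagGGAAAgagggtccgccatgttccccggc
Ppp3r1, chr11:17159048-17159347, plus strand: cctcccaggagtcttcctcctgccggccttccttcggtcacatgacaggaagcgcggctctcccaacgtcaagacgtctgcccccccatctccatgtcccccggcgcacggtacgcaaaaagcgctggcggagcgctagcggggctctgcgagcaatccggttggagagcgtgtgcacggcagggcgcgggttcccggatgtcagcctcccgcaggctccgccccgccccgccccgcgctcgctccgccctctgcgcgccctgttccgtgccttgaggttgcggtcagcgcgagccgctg

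The window at the first start of *Rcan1* held no GGAAA, whereas that of the start inside the gene held 3, at 227, 193 and 163 bases before the start, together with 1 AP-1 match at 110 bases before it. *Rcan2* has 3 windows, with 2 GGAAA in the first, none in the second and, in the last, none beside 1 AP-1 match at 25 bases before the start. *Ppp3cb* held 4 and *Ppp3r1* held none, although both were lower in KO diaphragm. Among the other windows not printed, *Nfatc2* held 3 and 1, *Nfatc3* held 1 and 0 and *Nfatc4* held 3. The arrays give 1 value per gene, so that transcripts from the different starts of *Rcan1* or *Rcan2* are not told apart, and a match of letters shows no binding.

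The 3 calcineurin subunit genes among the 9, *Nfatc1*, *Nfatc3* and *Rcan1* were lower in KO diaphragm than on arrays with the WT diaphragm label, and *Rcan2* was higher. That is 7 of 9 genes called, where 27.6% of all genes were called in this comparison, 16.3% higher and 11.2% lower. The arrays of both groups did not overlap for these 7 genes, 6 lower as for 22.2% of all genes and 1 higher as for 20.9%. The median log2 difference of the 9 genes was -0.53, against -0.04 over all genes. *Ppp3cc*, a catalytic subunit gene outside the 9, stood at -0.03 in this comparison (adjusted p = 0.89). In gastrocnemius none of the 9 was called between KO and WT mice, where 0.592% of all genes were called. At an unadjusted p under 0.05, for which the share of all genes was not counted, there were 2, *Nfatc4* and *Rcan2*. No 95% interval there reached beyond -0.50 or 0.51. The difference between the KO minus WT values of both muscle labels (the interaction, diaphragm minus gastrocnemius) was called for 6 genes, 5 lower and 1 higher, against 14.8% of all genes, 6.07% lower and 8.76% higher. Within KO mice, 6 genes were lower and 2 higher in diaphragm than in gastrocnemius, against 28.9% of all genes called (11.2% lower, 17.7% higher), and this comparison is between KO arrays, with the other arrays entering the shared estimate of the spread alone. Its arrays did not overlap for 6 lower genes and 1 higher gene, *Rcan2*, as for 19% and 25.7% of all genes. Between the arrays with the WT diaphragm label and WT gastrocnemius, only *Rcan1* and *Rcan2* were called, both higher on the former, where 0.461% of all genes were called and 0.296% were higher. Both had arrays without overlap, as did 10.9% of all genes in this direction. These comparisons share arrays with each other, so that their values are given side by side and not as independent results. In whole muscle, fewer cells of a type and less RNA per cell cannot be told apart.

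**Figure D1:**
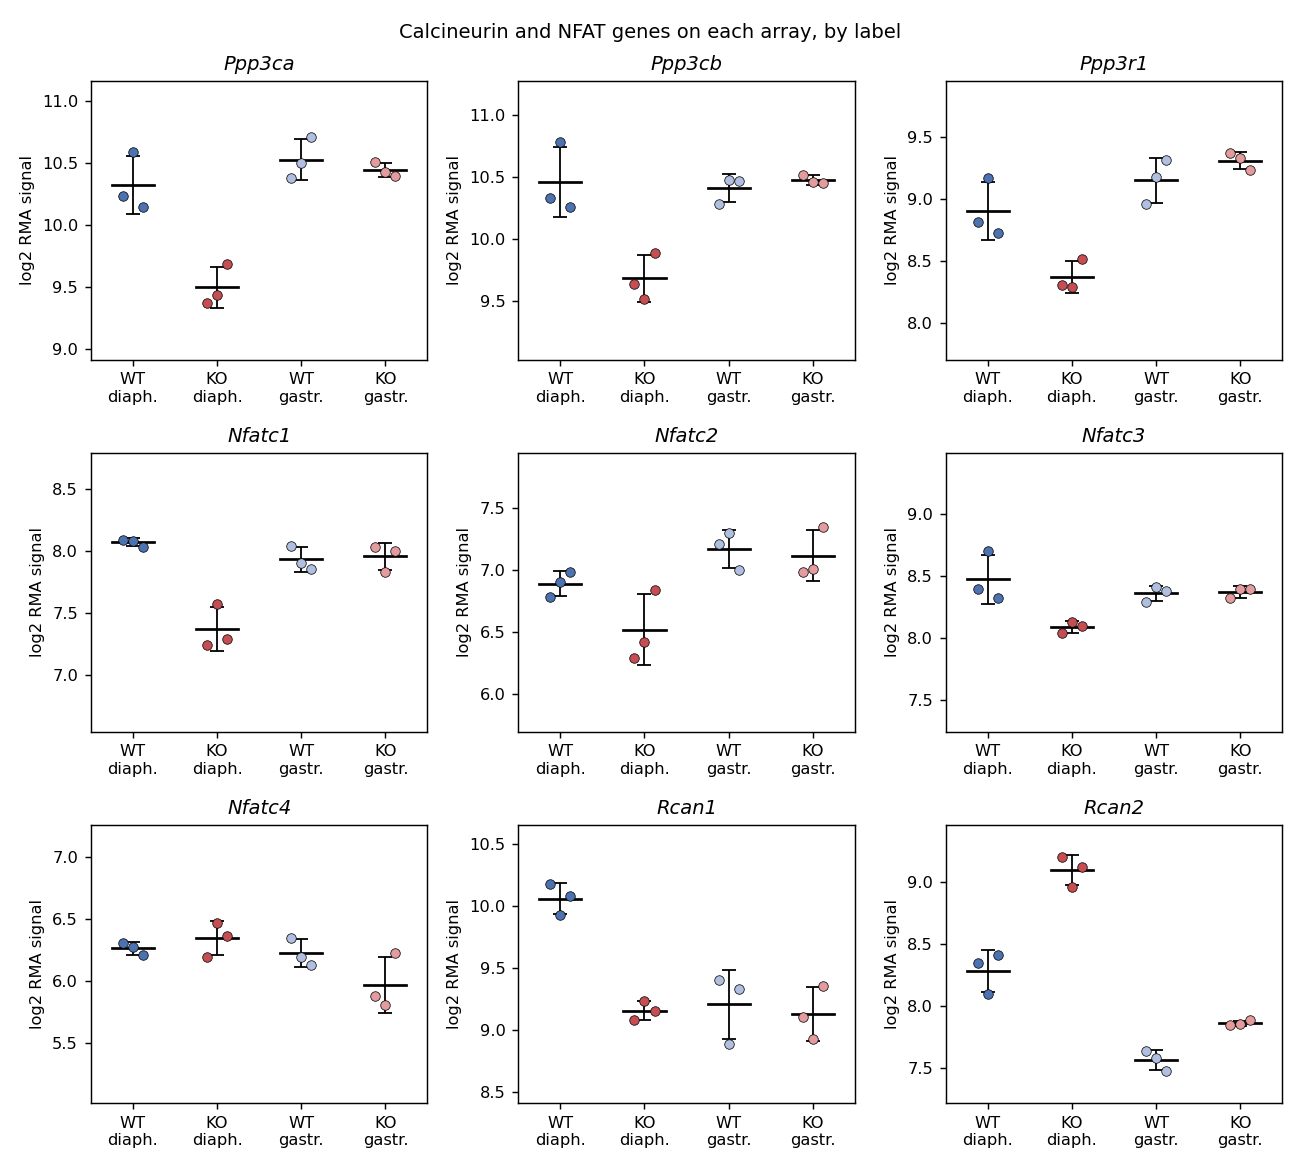
Log2 RMA signal (vertical axes, each panel spanning the same number of log2 units) of the 9 genes on each of the 12 arrays, by label (horizontal axes; WT diaph. stands for the arrays with the WT diaphragm label); points are arrays, wide marks are means and bars are SD (n = 3). For *Ppp3ca*, *Ppp3cb*, *Ppp3r1*, *Nfatc1* and *Nfatc3* the 3 KO diaphragm arrays lie below the other 9, for *Rcan2* they lie above them, and for *Rcan1* the 3 arrays with the WT diaphragm label lie above the other 9.

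The catalytic subunits *Ppp3ca* (A alpha) and *Ppp3cb* (A beta) and the regulatory subunit *Ppp3r1* (B alpha) showed the same order of groups at their low end: KO diaphragm was lowest for each. *Ppp3ca* read 10.24, 10.59 and 10.15 on the arrays with the WT diaphragm label, 9.37, 9.44 and 9.69 in KO diaphragm, 10.38, 10.50 and 10.71 in WT gastrocnemius and 10.51, 10.43 and 10.40 in KO gastrocnemius. The KO diaphragm arrays lay below all others, and the other 3 groups overlapped each other. *Ppp3ca* was lower in KO diaphragm than on arrays with the WT diaphragm label by a log2 difference of -0.83 (SE 0.13, 95% interval -1.10 to -0.56, adjusted p = 2.0e-04), a 1.77-fold difference, and lower than in KO gastrocnemius by -0.95 (SE 0.13, adjusted p = 5.9e-05). In gastrocnemius the KO minus WT difference was -0.09 (95% interval -0.36 to 0.18), and the interaction was -0.74 (SE 0.18, adjusted p = 0.011).

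*Ppp3cb* read 10.33, 10.78 and 10.26 on the arrays with the WT diaphragm label, 9.64, 9.52 and 9.89 in KO diaphragm, 10.28, 10.48 and 10.47 in WT gastrocnemius and 10.52, 10.46 and 10.45 in KO gastrocnemius. Again the KO diaphragm arrays were the lowest of the 12, and the means of the other 3 groups lay within 10.41 to 10.48. KO diaphragm differed from the arrays with the WT diaphragm label by -0.77 (SE 0.13, adjusted p = 5.7e-04), and the KO minus WT difference in gastrocnemius was 0.07 (95% interval -0.21 to 0.36), with an interaction of -0.84 (SE 0.19, adjusted p = 0.007). Within KO mice, diaphragm was lower than gastrocnemius by -0.80 (SE 0.13, adjusted p = 4.0e-04).

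*Ppp3r1* read 8.82, 9.17 and 8.73 on the arrays with the WT diaphragm label, 8.31, 8.29 and 8.52 in KO diaphragm, 8.96, 9.18 and 9.32 in WT gastrocnemius and 9.37, 9.33 and 9.24 in KO gastrocnemius. The KO diaphragm arrays were the lowest of the 12, and neighbouring groups among the other 3 overlapped. The difference between KO and the arrays with the WT diaphragm label was -0.53 (SE 0.12, adjusted p = 0.0054), smaller than the -0.94 (SE 0.12, adjusted p = 5.8e-05) between KO diaphragm and KO gastrocnemius. On the arrays with the WT diaphragm label *Ppp3r1* stood at -0.25 from WT gastrocnemius (95% interval -0.52 to 0.02, adjusted p = 0.42), and in gastrocnemius KO stood at 0.16 from WT (95% interval -0.11 to 0.43). The interaction was -0.69 (SE 0.18, adjusted p = 0.016).

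KO diaphragm arrays lying below all other 9 arrays are common in these data, at 9.02% of all genes, and 5 of the 9 genes had this pattern. For the 3 subunits, leaving out any 1 array left each call against the arrays with the WT diaphragm label, in the interaction and within KO mice. With the methods' t-test, which does not share the spread between genes, none of the 3 subunits was called between KO and the arrays with the WT diaphragm label (adjusted p = 0.059 for *Ppp3ca*, 0.088 for *Ppp3cb* and 0.11 for *Ppp3r1*).

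Of the NFAT factors, *Nfatc1*, whose entry into the nucleus of muscle fibers depends on activity, read 8.09, 8.08 and 8.03 on the arrays with the WT diaphragm label, 7.24, 7.57 and 7.29 in KO diaphragm, 8.04, 7.90 and 7.85 in WT gastrocnemius and 8.03, 7.83 and 8.00 in KO gastrocnemius. The KO diaphragm arrays were the lowest and the other 3 groups overlapped. *Nfatc1* was lower in KO diaphragm than on arrays with the WT diaphragm label by -0.70 (SE 0.10, adjusted p = 1.4e-04) and than in KO gastrocnemius by -0.59 (SE 0.10, adjusted p = 5.2e-04). Its KO minus WT difference in gastrocnemius was 0.03 (95% interval -0.19 to 0.25), and the interaction of -0.73 (SE 0.14, adjusted p = 0.0032) was called without any 1 of the arrays and under each of 7 alternatives.

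*Nfatc3* moved less. It read 8.40, 8.70 and 8.32 on the arrays with the WT diaphragm label, 8.04, 8.13 and 8.10 in KO diaphragm, 8.29, 8.41 and 8.38 in WT gastrocnemius and 8.32, 8.40 and 8.40 in KO gastrocnemius. The KO diaphragm arrays again lay below the other 9, at a smaller distance. The difference was -0.38 from the arrays with the WT diaphragm label (SE 0.10, adjusted p = 0.01) and -0.28 from KO gastrocnemius (SE 0.10, adjusted p = 0.046), the second being called in 3 of 12 fits that left out 1 array and lost without any KO array, without replicate 1 of the arrays with the WT diaphragm label and without WT gastrocnemius replicate 2 or 3. The interaction was -0.40 (95% interval -0.70 to -0.09, adjusted p = 0.076) and passed the test in 2 of 7 alternatives, with -0.53 (adjusted p = 0.021) after median centring, and also without replicate 3 of the arrays with the WT diaphragm label (-0.47, adjusted p = 0.045).

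*Nfatc2*, studied both in T cells and in the fusion of myoblasts, read 6.78, 6.90 and 6.98 on the arrays with the WT diaphragm label and 6.29, 6.42 and 6.84 in KO diaphragm, so that these groups overlapped. In WT gastrocnemius it read 7.21, 7.30 and 7.00 and in KO gastrocnemius 6.98, 7.01 and 7.35, all above both diaphragm groups. KO diaphragm stood at -0.37 from the arrays with the WT diaphragm label (95% interval -0.67 to -0.06, adjusted p = 0.07). It passed the test without KO diaphragm replicate 3, the highest of its group (-0.53, adjusted p = 0.0099). It also passed in 2 of 9 alternatives, after median centring and after quantile normalization (-0.47, adjusted p = 0.02 for the latter). Within KO mice *Nfatc2* was lower in diaphragm by -0.59 (SE 0.14, adjusted p = 0.0056), a call that the methods' t-test alone of the alternatives lost (adjusted p = 0.13). The arrays with the WT diaphragm label also lay below those of WT gastrocnemius, at -0.29 (95% interval -0.59 to 0.02, adjusted p = 0.42), and *Nfatc2* was the one gene of the 9 that did so without overlap, as did 5.91% of all genes.

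*Nfatc4* was the only NFAT gene of the 9 with a positive difference between KO diaphragm and the arrays with the WT diaphragm label. Its group means, from 5.98 to 6.35, lay near the median mean signal of all genes, 6.11. It read 6.31, 6.28 and 6.21 on the arrays with the WT diaphragm label, 6.20, 6.47 and 6.37 in KO diaphragm, 6.35, 6.20 and 6.13 in WT gastrocnemius and 5.88, 5.81 and 6.23 in KO gastrocnemius. All 4 groups overlapped their neighbours in the order of means. KO diaphragm stood at 0.08 from the arrays with the WT diaphragm label (95% interval -0.17 to 0.33), and KO stood at -0.25 from WT in gastrocnemius (95% interval -0.50 to -0.00, unadjusted p = 0.047, adjusted p = 0.3). Within KO mice *Nfatc4* was called higher in diaphragm (0.37, SE 0.12, adjusted p = 0.026) although these arrays overlapped, and the call was lost without KO diaphragm replicate 2 or 3, without KO gastrocnemius replicate 1 or 2, and after median centring or quantile normalization or with the methods' t-test (adjusted p = 0.18), with the lowest value at 0.24.

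**Figure D2:**
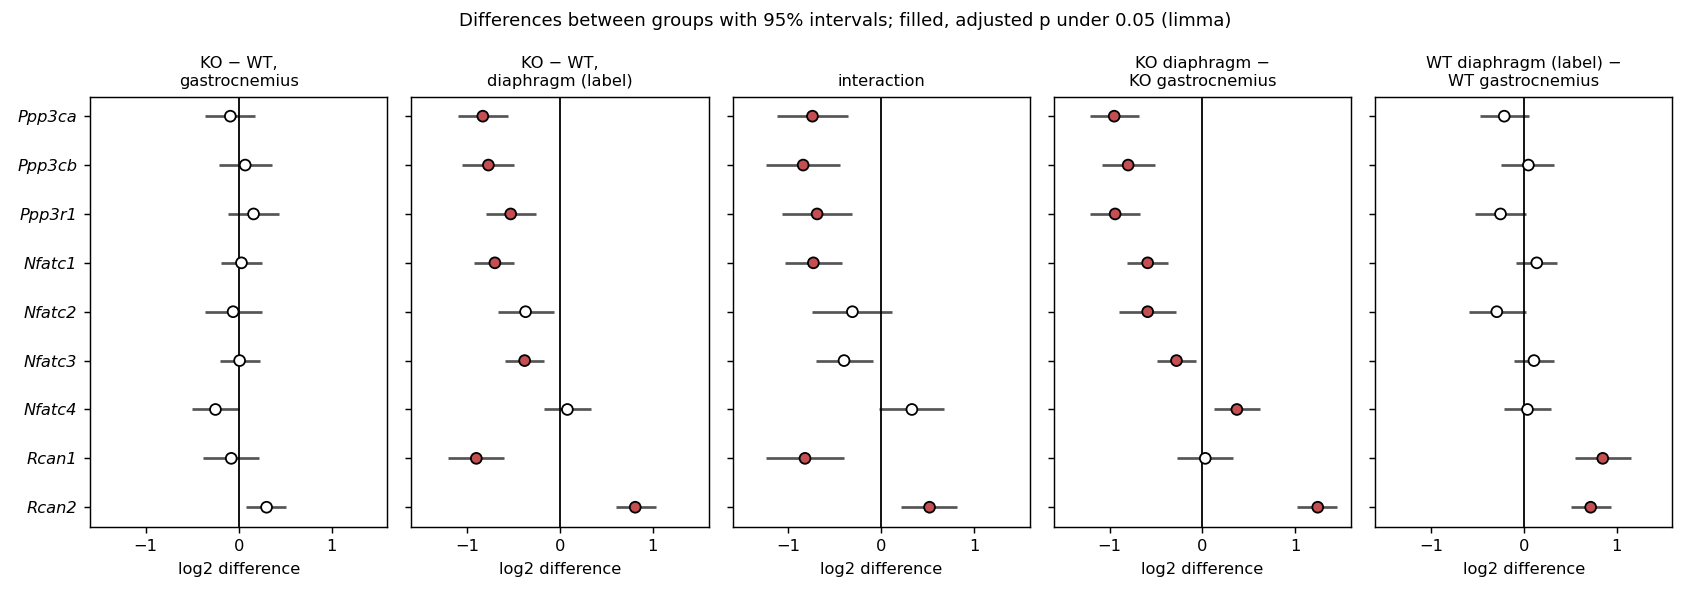
Log2 differences between groups (horizontal axes) of the 9 genes (vertical axis) in 5 comparisons, with 95% intervals from limma; filled points had an adjusted p under 0.05. In gastrocnemius no point is filled, in KO diaphragm the subunits, *Nfatc1*, *Nfatc3* and *Rcan1* lie to the left and *Rcan2* to the right, and between the arrays with the WT diaphragm label and WT gastrocnemius only *Rcan1* and *Rcan2* are filled.

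The inhibitor genes parted from the subunits and from each other. *Rcan1* read 10.18, 9.93 and 10.08 on the arrays with the WT diaphragm label, 9.08, 9.24 and 9.16 in KO diaphragm, 9.41, 8.89 and 9.33 in WT gastrocnemius and 9.11, 8.93 and 9.36 in KO gastrocnemius. The arrays with the WT diaphragm label were the highest of the 12, a pattern of 2.45% of all genes, and the other 3 groups overlapped with means of 9.21, 9.16 and 9.13. The difference of KO diaphragm from the arrays with the WT diaphragm label was -0.90 (SE 0.14, 95% interval -1.20 to -0.60, adjusted p = 2.4e-04), and that between the arrays with the WT diaphragm label and WT gastrocnemius was 0.85 (SE 0.14, 95% interval 0.55 to 1.15, adjusted p = 0.015). Within KO mice, by contrast, diaphragm stood at 0.03 from gastrocnemius (95% interval -0.27 to 0.33, adjusted p = 0.91), and in gastrocnemius KO stood at -0.08 from WT (95% interval -0.38 to 0.22). Both called values of *Rcan1* and its interaction of -0.82 (SE 0.20, adjusted p = 0.011) thus rest on the arrays with the WT diaphragm label.

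By the size of its difference *Rcan1* had rank 22 among the 92 genes called between the arrays with the WT diaphragm label and WT gastrocnemius, and *Rcan2* had rank 39. Without replicate 1 or replicate 3 of the arrays with the WT diaphragm label the *Rcan1* difference was no longer called there, with an adjusted p of up to 0.075 and a lowest value of 0.69 over the 12 fits that left out 1 array. All 6 markers of smooth muscle had positive differences between the arrays with the WT diaphragm label and WT gastrocnemius, as *Rcan1* did. Of 6, 2 were called higher on the arrays with the WT diaphragm label than in WT gastrocnemius and none lower. In that comparison 0.296% of all genes were called higher. In KO diaphragm 5 of 6 were called lower than on these arrays, and *Smtn*, smoothelin, was called higher by 0.38. Of all genes, 11.2% were called lower and 16.3% higher there. The summed signal of the 6 markers was 1911 to 2336 on the arrays with the WT diaphragm label, 1315 to 1703 in KO diaphragm, 1189 to 1446 in WT gastrocnemius and 1183 to 1451 in KO gastrocnemius. *Acta2*, smooth muscle actin, had means of 10.09, 9.33, 9.19 and 9.11 in the same order. The part of smooth muscle in the *Rcan1* result was not tested.

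*Rcan2* was the only one of the 9 genes whose 4 groups stood apart without overlap. Its KO diaphragm arrays were the highest of the 12, as for 14.4% of all genes, and its WT gastrocnemius arrays the lowest, as for 2.23%. It read 9.20, 8.96 and 9.12 in KO diaphragm, 8.34, 8.09 and 8.41 on the arrays with the WT diaphragm label, 7.84, 7.85 and 7.88 in KO gastrocnemius and 7.63, 7.58 and 7.47 in WT gastrocnemius. KO arrays were thus above WT arrays within each muscle label, and arrays labelled diaphragm were above those of gastrocnemius within each genotype. The difference of KO diaphragm from the arrays with the WT diaphragm label was 0.81 (SE 0.10, 95% interval 0.60 to 1.03, adjusted p = 3.7e-05), a 1.76-fold difference. In gastrocnemius the KO minus WT difference was 0.30 (SE 0.10, 95% interval 0.08 to 0.51, adjusted p = 0.17), where 12.3% of all genes had the KO arrays wholly above the WT arrays, and no alternative called it.

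Within KO mice *Rcan2* was higher in diaphragm than in gastrocnemius by 1.24 (SE 0.10, adjusted p = 7.3e-07), a 2.36-fold difference. On the arrays with the WT diaphragm label it was higher than in WT gastrocnemius by 0.72 (SE 0.10, adjusted p = 0.0056). The first value is independent of the arrays with the WT diaphragm label, except that these enter the shared estimate of the spread, and it was called in each of 9 alternatives, among them a fit without these arrays. The interaction of 0.52 (SE 0.14, adjusted p = 0.024) was less settled: it was called in 8 of 12 fits that left out 1 array, not without WT gastrocnemius replicate 1, KO diaphragm replicate 1 or KO gastrocnemius replicate 1 or 2 (adjusted p up to 0.055), and it was 0.38 (adjusted p = 0.089) after median centring.

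**Figure D3:**
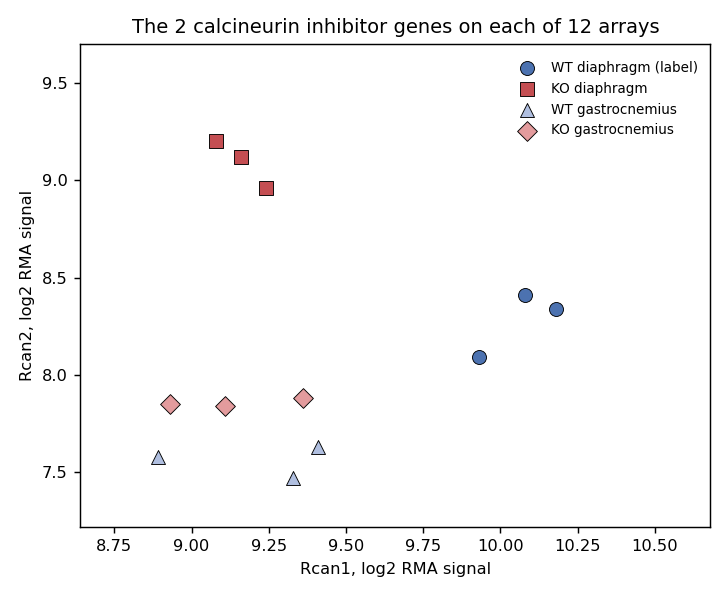
Log2 RMA signal of *Rcan1* (horizontal axis) and *Rcan2* (vertical axis) on each of the 12 arrays, 1 symbol per array and 1 shape per group, by label. The arrays with the WT diaphragm label stand to the right at 9.93 to 10.18 for *Rcan1*, the KO diaphragm arrays stand at the top at 8.96 to 9.20 for *Rcan2*, and the gastrocnemius arrays lie below 8 for *Rcan2*.

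Around these 9 genes, 44 other genes of the pathway were analysed. In KO diaphragm 8 of the 44 were called higher and 16 lower than on the arrays with the WT diaphragm label, with a median of -0.13, where 16.3% of all genes were called higher and 11.2% lower. In gastrocnemius none was called between KO and WT mice, where 0.592% of all genes were called. An unadjusted p under 0.05 was found for 11, and the share of all genes at that threshold was not counted. The interaction was called for 4 higher and 9 lower (8.76% and 6.07% of all genes), and within KO mice diaphragm had 7 higher and 15 lower (17.7% and 11.2% of all genes). Between the arrays with the WT diaphragm label and WT gastrocnemius 1 was called, the NFAT kinase *Gsk3a*, higher by 0.46 (SE 0.08, adjusted p = 0.03), and it lost the call without any 1 of the 6 arrays compared.

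Genes of the kinases that return NFAT factors to the cytoplasm were mostly lower in KO diaphragm, as *Ppp3ca*, *Ppp3cb* and *Ppp3r1* were. Of 11 genes, 8 were called lower than on the arrays with the WT diaphragm label and none higher, with a median of -0.43, and 7 were called lower than in KO gastrocnemius. In each comparison 11.2% of all genes were called lower. *Gsk3a*, a glycogen synthase kinase, differed by -0.66 (SE 0.08, adjusted p = 4.1e-05), *Mapk14*, p38 alpha, by -0.61 (SE 0.08, adjusted p = 7.2e-05) and *Csnk1e*, a casein kinase, by -0.60 (SE 0.10, adjusted p = 5.2e-04). All 11 interaction values were negative, and 3 of them were called: *Mapk14* at -0.75, *Gsk3a* at -0.68 and *Dyrk2* at -0.67. In the interaction 6.07% of all genes were called lower.

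Genes of proteins that bind calcineurin at the Z-disc of the sarcomere moved in opposite directions. *Myoz1*, the calsarcin of fast fibers, was lower in KO diaphragm by -1.52 (SE 0.09, adjusted p = 4.0e-08) and *Myoz3* by -0.72 (SE 0.11, adjusted p = 3.0e-04), while *Myoz2*, the calsarcin of slow fibers and heart, was higher by 1.20 (SE 0.21, adjusted p = 6.2e-04). Group means of *Myoz1* were 12.78 on the arrays with the WT diaphragm label, 11.26 in KO diaphragm, 12.85 in WT and 12.90 in KO gastrocnemius, so that KO diaphragm stood alone. Within KO mice *Myoz1* differed between diaphragm and gastrocnemius by -1.64, *Myoz3* by -0.92 and *Myoz2* by 1.28, each called. Over the 10 binding proteins, 2 were called higher and 2 lower in KO diaphragm than on arrays with the WT diaphragm label, and the median was 0.12. Of all genes, 16.3% were called higher and 11.2% lower there.

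Genes that bring calcium to calcineurin also split. Of 12 measured, 4 were higher and 4 lower in KO diaphragm than on arrays with the WT diaphragm label, against the same 16.3% and 11.2% of all genes. The scaffold gene *Homer1* differed by -1.13 (SE 0.12, adjusted p = 1.1e-05) and *Stim2*, a sensor of calcium stores, by -1.12 (SE 0.11, adjusted p = 5.3e-06), whereas *Homer2* differed by 0.94 (SE 0.12, adjusted p = 3.8e-05). *Calm3*, 1 of the calmodulin genes, had an interaction of -0.86 (SE 0.13, adjusted p = 4.8e-04). Means of *Homer1* were 9.09 on the arrays with the WT diaphragm label, 7.97 in KO diaphragm, 8.88 in WT and 9.21 in KO gastrocnemius, and those of *Homer2* were 7.74, 8.68, 7.48 and 7.81 in the same order.

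Of the remaining family members, *Nfat5*, which answers to osmotic stress and lacks the calcineurin docking region, was called higher in KO diaphragm than on arrays with the WT diaphragm label (0.67, SE 0.14, adjusted p = 0.0028), opposite to *Nfatc1* and *Nfatc3*. It stood at 0.21 from KO gastrocnemius (95% interval -0.09 to 0.52). Of 7 partners and other substrates, 2 were called lower and 1 higher in KO diaphragm than on arrays with the WT diaphragm label. Of all genes, 11.2% were called lower and 16.3% higher there. *Hdac4*, a repressor of MEF2 factors, was lower by -0.55 (SE 0.10, adjusted p = 0.0011) and *Tfeb*, a lysosomal regulator and calcineurin substrate, by -0.45 (SE 0.09, adjusted p = 0.0017). The third called was *Ppargc1a*, a coactivator of oxidative genes, which was higher by 1.11 (SE 0.29, adjusted p = 0.011) with overlapping arrays, and which was higher in diaphragm than in gastrocnemius of KO mice by 1.33 (SE 0.29, adjusted p = 0.0032).

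**Figure D4:**
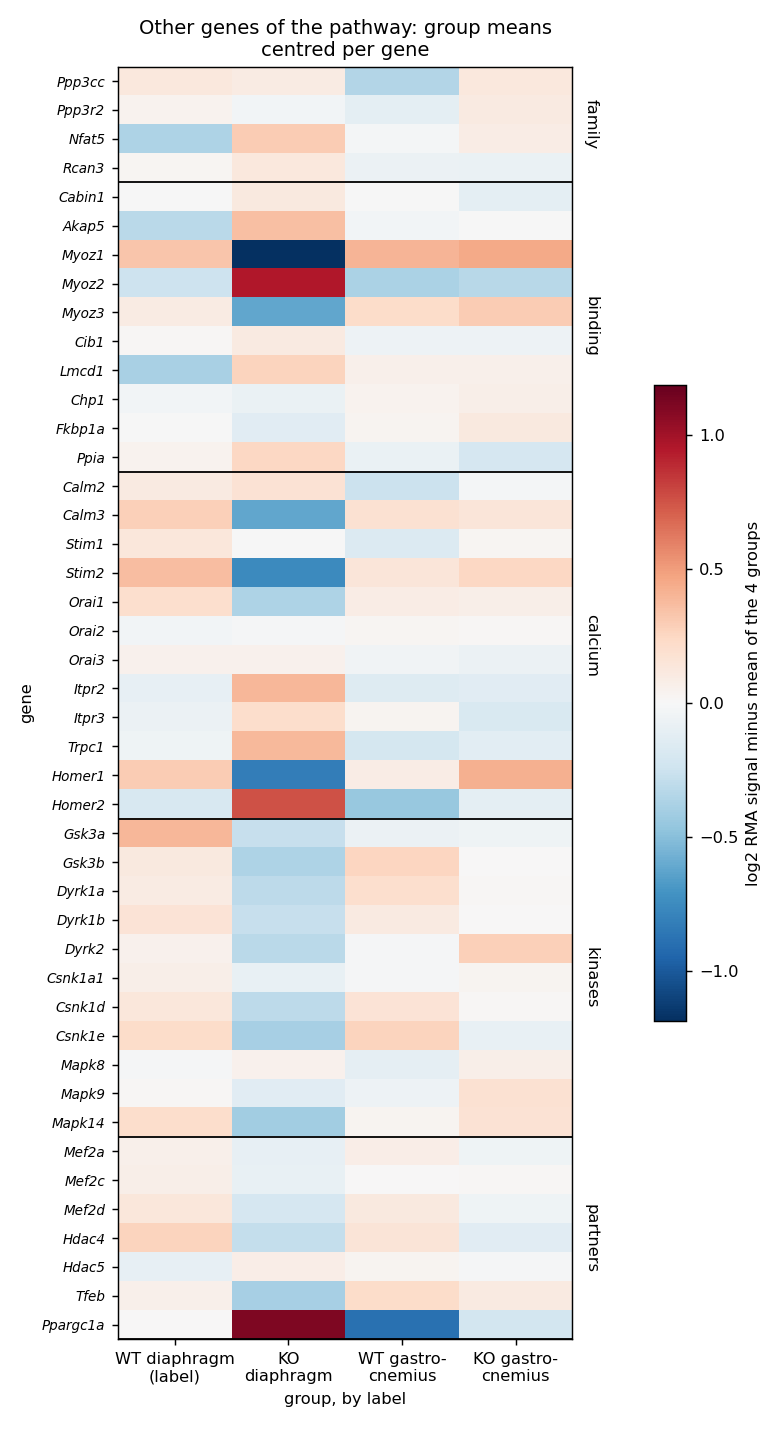
Group means of the 44 other pathway genes (vertical axis, grouped by role) in the 4 groups (horizontal axis, by label), as log2 RMA signal minus the mean of the 4 groups of that gene; blue is lower and red is higher. The KO diaphragm column differs most in colour from the others, with *Myoz1* lowest and *Ppargc1a* and *Myoz2* highest, and most kinases are blue there.

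Genes of the slow fiber program are known to be driven by calcineurin. The 10 measured were all called higher in KO diaphragm than on arrays with the WT diaphragm label (median 1.31), against 16.3% of all genes. The 3 calcineurin subunit genes among the 9 were lower there. *Casq2*, the slow and cardiac calsequestrin, differed by 3.06 (SE 0.15, adjusted p = 7.5e-09), *Myl2*, the slow myosin light chain, by 1.74 (SE 0.22, adjusted p = 5.3e-05) and *Tnnt1*, slow troponin T, by 1.61 (SE 0.22, adjusted p = 7.9e-05). Within KO mice 9 of 10 were higher in diaphragm than in gastrocnemius, against 17.7% of all genes, with a median of 1.13. In gastrocnemius none of the 10 was called between KO and WT mice, where 0.592% of all genes were called. An unadjusted p under 0.05, for which the share of all genes was not counted, was found for 1. That gene was *Casq2*, at 0.62 (95% interval 0.29 to 0.95, adjusted p = 0.087).

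The genes whose levels ran closest to those of the 9 were sought among the 9969 genes at or above the median mean signal. The search was made for the gene with the widest range of group means in each role. Distance was the root mean square difference over the 12 arrays after centring each gene on its own mean. For *Ppp3ca* the closest were *Wwp1* (0.0958 log2 units), *Klhl31* (0.106) and *Psme4* (0.107). For *Nfatc1* they were *Prdm4* (0.0965), *Rxra* (0.104) and *Vkorc1l1* (0.106), and for *Rcan2* they were *Slc41a1* (0.147), *Lpgat1* (0.148) and *Akap1* (0.151). Many genes lay nearly as close: within 1.5 times the smallest distance there were 24 for *Ppp3ca*, 68 for *Nfatc1* and 36 for *Rcan2*.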

How the data were processed

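The authors labelled total RNA for mouse Gene 1.0 ST arrays and processed the scans with the default RMA sketch workflow of Affymetrix Expression Console (version not given in the sources used here). The deposited values are log2 signals, background-corrected, normalized between arrays and summarised per probe set, from 1.65 to 14.4. The annotation gave 1 gene symbol for 21789 of 35556 probe sets and several for 1621, and it does not list the other 12146. The first kind gave 19938 genes, each taken at its brightest probe set. Arrays hold no read depth, so that their number limits the precision; the median residual SD was 0.138.

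Comparisons used limma 3.58.1 (lmFit and eBayes, R 4.3.3). The model had a mean per group and no covariate, with 8 residual degrees of freedom and 6.18 prior ones, and was tested on simulated data. P-values measure the spread between arrays labelled as biological replicates. An exact permutation test of 3 arrays against 3 cannot go below 0.1 and was not used for single genes. Replicate numbers are shared between groups. Nothing in the sources says that they mark a shared mouse, litter or day, so that no block was used. The deviations of 18 same-numbered pairs correlated at -0.096 to 0.161, with 2 over 0.1. Those of 36 differently numbered pairs correlated at -0.229 to 0.173, with 2 over 0.1. The same-numbered pairs include pairs of a KO with a WT array, which cannot come from 1 mouse. The alternatives tried were quantile normalization, median centring, averaging all probe sets of a gene, the trend and robust options of eBayes, a filter at the median signal, the methods' t-test, a replicate block (fixed, or random with statmod 1.5.0), separate fits per muscle, and fits without each array or without all arrays with the WT diaphragm label.

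The 9 genes, the pathway and marker lists and the tests were chosen with earlier results of these data known. All 9 genes were named; of each pathway list, up to 3 called genes per comparison with the largest differences and no overlap of arrays, or otherwise the one with the smallest p, and of each marker list at most 2. Promoter windows came from RefSeq (GRCm38.p6).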

Additional observations from a re-analysis of the deposited data

Results flagged for a closer look

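For 6 of the 9 genes the KO minus WT difference itself differed between the muscle labels in the interaction test of limma, and the values, as log2 differences in diaphragm minus gastrocnemius, were -0.74 for *Ppp3ca*, -0.84 for *Ppp3cb*, -0.69 for *Ppp3r1*, -0.73 for *Nfatc1*, -0.82 for *Rcan1* and 0.52 for *Rcan2*. The named genes of the surrounding pathway for which it also differed were *Myoz1* at -1.57, *Myoz2* at 1.15, *Myoz3* at -0.80, *Homer1* at -1.45, *Stim2* at -1.23, *Calm3* at -0.86, *Gsk3a* at -0.68, *Mapk14* at -0.75 and *Dyrk2* at -0.67. Of the slow fiber program, *Casq2* was at 2.44, *Tnnt1* at 1.86 and *Atp2a2*, the slow and cardiac calcium pump, at 2.01. Each of these values contains the arrays with the WT diaphragm label, and 14.8% of all genes were called in the same test.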

How the results depend on the processing

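The counts of the 9 genes called kept within 1.5 times under all alternatives but the methods' t-test, which called 3 between KO and the arrays with the WT diaphragm label and 0 between these arrays and WT gastrocnemius; in the second comparison, leaving out 1 array gave 1 to 2. Of the other pathway genes, 0 were called there with the replicate block as a fixed effect, 2 with eBayes trend and robust, 2 among genes at or above the median signal, 0 with the methods' t-test, and 0 to 1 when 1 array was left out. The replicate block, fixed or random, changed no other call of the 9 genes than that of *Nfatc3* within KO mice, which the random block moved to an adjusted p of 0.052. Signs turned only for values near 0. After quantile normalization the gastrocnemius difference was -0.03 for *Nfatc1* and -0.04 for *Nfatc3*, and after median centring it was 0.00 for *Nfatc2*, while *Rcan1* within KO mice was -0.10. Leaving out 1 array gave, in gastrocnemius, -0.16 to 0.00 for *Ppp3ca*, -0.01 to 0.09 for *Nfatc1*, -0.18 to 0.01 for *Nfatc2*, -0.02 to 0.04 for *Nfatc3* and -0.24 to 0.02 for *Rcan1*; -0.07 to 0.14 for *Rcan1* within KO mice; and, between the arrays with the WT diaphragm label and WT gastrocnemius, -0.12 to 0.14 for *Ppp3cb* and -0.01 to 0.10 for *Nfatc4*. Median centring moved the median of all genes from -0.044 to -0.118 in KO diaphragm minus the arrays with the WT diaphragm label, from -0.002 to -0.134 in the interaction and from 0.016 to -0.111 within KO mice. It moved the share of higher among called genes from 59.3% to 41%, from 59.1% to 34.8% and from 61.3% to 35.6% in these comparisons and from 68.6% to 86.6% in gastrocnemius; quantile normalization moved it to 49.3% in the first. Groups of 3 arrays limit what differences can be called.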

Other observations

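*Ppp3cc*, the third catalytic subunit gene, did not share the pattern of *Ppp3ca* and *Ppp3cb*. Its mean log2 signal was 8.42 on the arrays with the WT diaphragm label, 8.39 in KO diaphragm and 8.42 in KO gastrocnemius, against 7.95 in WT gastrocnemius. The KO minus WT difference in gastrocnemius was 0.47 (SE 0.12, 95% interval 0.22 to 0.72, adjusted p = 0.088), with every KO array above every WT array, and the interaction was -0.49 (adjusted p = 0.059). *Ppp3r2*, the regulatory subunit gene known from testis, had means of 3.08 to 3.30.

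Among the arrays with the WT diaphragm label, replicate 2 was the highest for *Ppp3ca*, *Ppp3cb*, *Ppp3r1* and *Nfatc3* and the lowest for *Rcan1* and *Rcan2*. In KO diaphragm, replicate 3 was the highest for *Ppp3ca*, *Ppp3cb*, *Ppp3r1* and *Nfatc2*.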
